A study of Caenorhabditis elegans with 18 samples.

Results

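LEM-2 contact in early embryos labelled set-25(n5021) was examined through LEM-2 chromatin immunoprecipitation (ChIP) and sequencing, compared with input chromatin of the same strain. The libraries were taken by their labels: 3 LEM-2 IP and 3 input libraries of the strain, 6 of the 18 in the series. The others, used here only for comparison, came from met-2(n4256) and from the wild type N2 (Bristol), with 6 libraries each. All embryos were of Caenorhabditis elegans, collected at 20 °C before the bean stage, and both mutant alleles are given as lying on chromosome III. Replicates were independent by the study's own description. The table names its columns by strain, kind of library and a letter, so the libraries are called columns a, b and c labelled set-25. IP libraries held 25.7 to 41.9 M reads and inputs 37.6 to 64.5 M (M, mega), which gave a median 10-kb bin 2342 to 3505 IP reads and 3532 to 6118 input reads.

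LEM-2 is a LEM-domain protein of the inner nuclear membrane, and chromatin that is crosslinked to it and pulled down with it lies at the nuclear periphery. In worm embryos the arms of the autosomes, which are rich in repeats and in methylated lysine 9 of histone H3, are held at the periphery, while the gene-rich centres face the interior. SET-25 is the histone methyltransferase that completes the trimethylation of this lysine, and MET-2, the worm homologue of SETDB1, places the earlier methyl groups. Enrichment below is the log2 value of an IP column minus that of the input column with the same letter, averaged over the windows of a bin or region. A value above 0 means more IP than input after both were scaled to the same total.

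The 3 columns differed in which short stretches of the genome they held, so each is given by itself. A stretch of chromosome III from 13287501 to 13289000 had 0 to 4 reads in all 6 libraries labelled set-25, against 98 to 655 reads in each met-2 or N2 library. Chromosome III from 8376501 to 8377500 held 234 IP reads and 684 input reads in column a, 0 and 0 in column b, and 1 and 0 in column c. The met-2 libraries had 0 to 5 reads there. Column a in turn lacked a stretch that columns b and c carried. On chromosome V from 5080501 to 5082500 it held 9 IP reads and 5 input reads, while column b held 519 and 584 and column c 415 and 501. The reverse held on V from 1646001 to 1647500, with 862 IP and 791 input reads in column a, 0 and 1 in column b, and 0 and 2 in column c. Input coverage of V from 2350001 to 2560000 was 157% of the median bin in column a, 73.8% in column b and 79.6% in column c, and IP coverage was 210%, 92.4% and 95.4%. Enrichment over these 21 bins was 0.21, 0.23 and 0.19. Against the mean of the 3 inputs it was 0.91, -0.17 and -0.11. The N2 columns differed at these places on V too. Inputs a, b and c of N2 held 1042, 237 and 295 reads from 5080501 to 5082500, and 0, 471 and 541 from 1646001 to 1647500. Their coverage from 2350001 to 2560000 was 41.2%, 171% and 179% of the median bin. The met-2 inputs held 602 to 1167 reads in the first stretch, 477 to 660 in the second, and 145% to 183% coverage in the third.

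Each chromosome was divided into a left, a middle and a right part of equal length. In all 3 columns LEM-2 signal was low over the middle parts of the 5 autosomes and near or above input over most of their outer parts. The middle part of III was lowest, at -0.86, -0.59 and -0.44 in columns a, b and c. Those of I and II followed, with -0.80, -0.44 and -0.33 on I and -0.69, -0.47 and -0.33 on II. The middle parts of IV and V lay closer to input, at -0.50, -0.29 and -0.19 on IV and -0.54, -0.26 and -0.17 on V. In every autosomal middle part column a was lowest and column c nearest to 0. The right part of IV was the highest, at 0.25, 0.33 and 0.29. It was followed by the left part of III, at 0.25, 0.12 and 0.08, and the right part of V, at 0.20, 0.13 and 0.10. The right part of I was the lowest outer part, at 0.02, -0.10 and -0.10, and the right part of II lay at -0.05, 0.04 and 0.00.

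Column a was above both b and c in 6 of the 10 autosomal outer parts and below both in 3. The 3 were the left part of V, at 0.04 against 0.13 and 0.10, and the right parts of II and IV. X was below input throughout at this scale, at -0.16, -0.15 and -0.12 in its left part, -0.46, -0.29 and -0.22 in its middle part and -0.20, -0.08 and -0.07 in its right part. Which parts lie above 0 depends on the scaling to total reads. With each library centred on its median bin, the right part of I averaged 0.07 over the 3 columns in place of -0.06, and the right part of X 0.01 in place of -0.12.

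**Figure D1:**
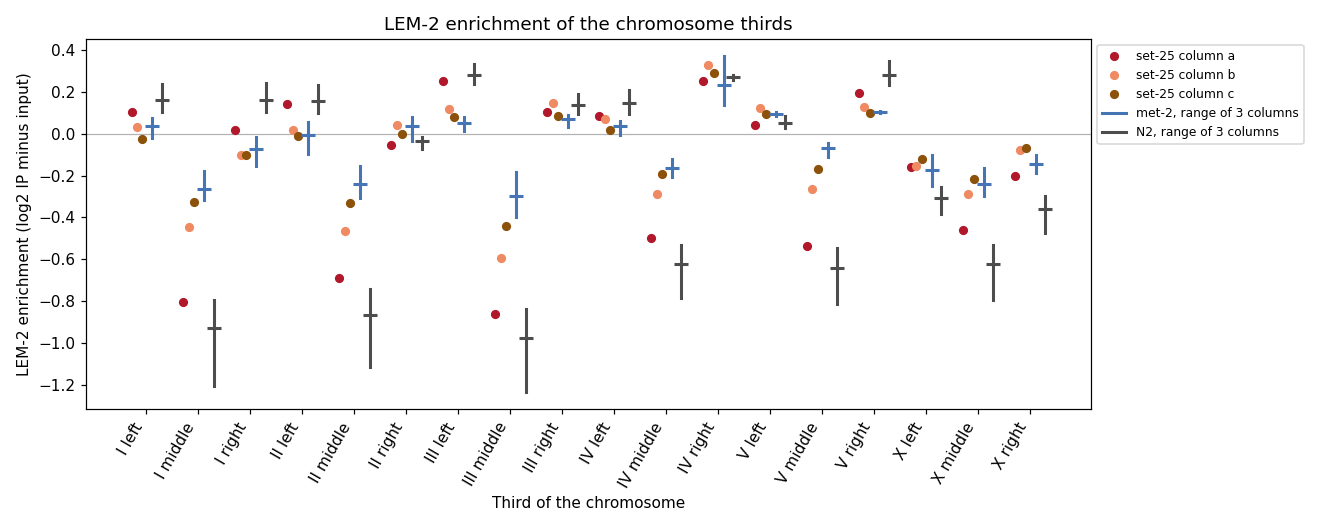
LEM-2 enrichment (log2 IP minus input, y axis) of each of the 18 chromosome parts (x axis). Points are columns a, b and c labelled set-25, and vertical lines give the range of the 3 met-2 and the 3 N2 columns, with a tick at their mean. The points of column a lie lowest of the 3 in all 5 autosomal middle parts, down to -0.86 on III.

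A finer division, into 20 segments of equal length for each chromosome, showed where the columns parted. Of 120 segments, 38 were above 0 in all 3 columns and 65 below 0 in all 3. In 6 segments column a was above 0 with b and c below, and in another 6 the reverse. The first kind lay on arms. On II from 2290001 to 3060000 column a stood at 0.28, b at -0.08 and c at -0.13, and in the next segment, to 3820000, it was 0.20, -0.07 and -0.11. The others were 3 segments of the right arm of I, from 11300001 to 12060000 and from 13570001 to the end, and V from 16740001 to 17780000, where column a was at 0.30 and b and c just below 0.

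The second kind lay mostly inside chromosomes. A stretch of 3 neighbouring segments on IV, from 4370001 to 7000000, was at -0.22, -0.14 and -0.11 in column a. It was at 0.03, 0.12 and 0.17 in column b and at 0.01, 0.13 and 0.18 in column c. The same 3 segments averaged -0.01, 0.03 and 0.06 in met-2 and -0.30, -0.25 and -0.19 in N2. On V from 7320001 to 8370000 the columns labelled set-25 were at -0.22, 0.01 and 0.04, and on X from 8860001 to 9750000 at -0.21, 0.01 and 0.04. The right arm of IV differed little between columns. Its last 4 segments were between 0.41 and 0.69 in column a, 0.49 and 0.68 in column b, and 0.43 and 0.58 in column c. On the right arm of V, segments 18 and 19 were at 0.51 and 0.63 in column a, 0.21 and 0.31 in column b, and 0.14 and 0.21 in column c.

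**Figure D2:**
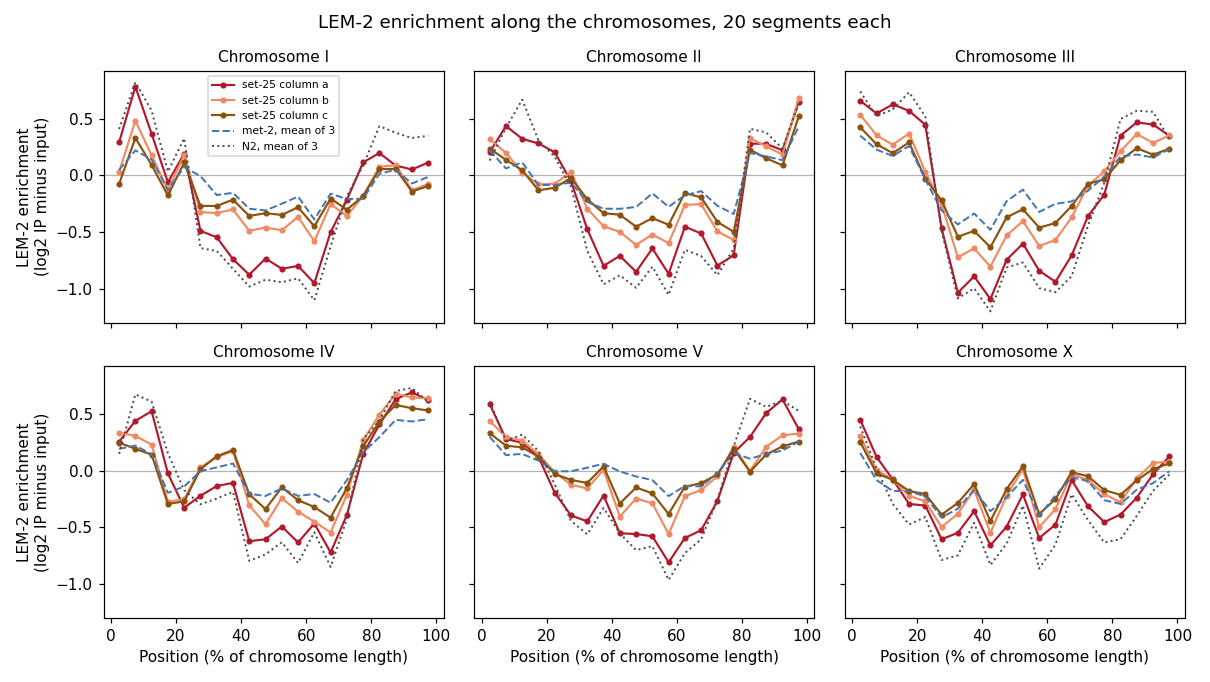
Mean LEM-2 enrichment (log2 IP minus input, y axis) in 20 segments of each chromosome, by position in percent of its length (x axis). Solid lines with points are columns a, b and c labelled set-25, the dashed line is the mean of 3 met-2 columns and the dotted line that of 3 N2 columns. On IV, columns b and c reach 0.17 and 0.18 in the eighth segment, where column a is at -0.11.

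Signal changed with distance from the chromosome end. Over the 10 autosome arms, the outermost 0.5 Mb averaged 0.35 ± 0.28, 0.32 ± 0.31 and 0.24 ± 0.27 in columns a, b and c (SD over arms). The highest mean of each column lay at 0.5 to 1 Mb from the end. Columns a, b and c had 0.48 ± 0.17, 0.38 ± 0.19 and 0.28 ± 0.16 there, and 10, 9 and 9 of the 10 arms were above 0. The means passed 0 between 3 and 4 Mb in columns a and b and between 2.5 and 3.5 Mb in column c. At 3 to 3.5 Mb enrichment was 0.14, 0.02 and -0.02, and at 3.5 to 4 Mb -0.16, -0.13 and -0.13. At 5.5 to 6 Mb it was -0.67 ± 0.31, -0.36 ± 0.31 and -0.27 ± 0.26. The arms share libraries and are not replicates of the strain.

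**Figure D3:**
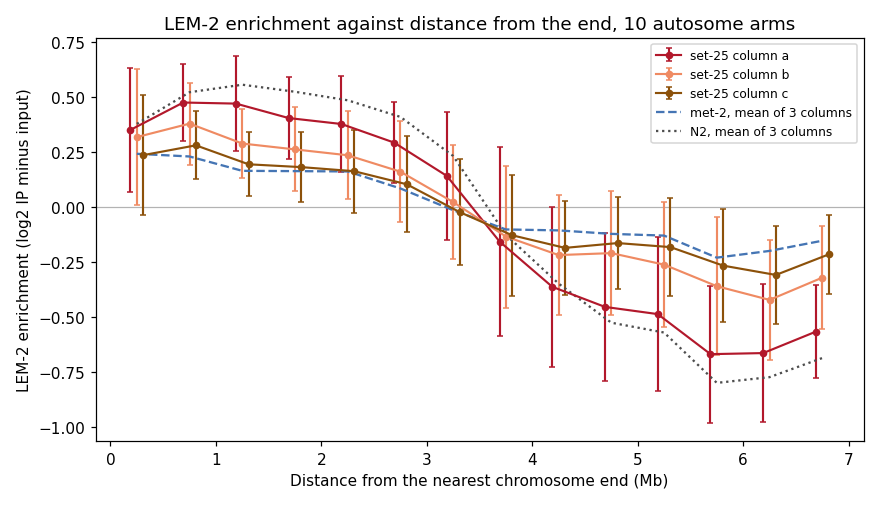
Mean LEM-2 enrichment (log2 IP minus input, y axis) against distance from the nearest chromosome end in Mb (x axis), over 10 autosome arms in steps of 0.5 Mb. Points are columns a, b and c labelled set-25 with the SD over arms, and the lines without points are the means of 3 met-2 and 3 N2 columns. At 3 to 3.5 Mb column a is at 0.14, column b at 0.02 and column c at -0.02.

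A fit of 3 levels to each chromosome, made on a running mean of 500 kb, placed the edges of the outer segments. In 7 of the 10 autosomal edges the 3 columns fell within 0.2 Mb of each other. The left segment of I ended 3.63, 3.63 and 3.62 Mb from the end in columns a, b and c, and the right segment of II 3.23, 3.22 and 3.19 Mb from its end. The right segment of IV measured 4.06, 4.12 and 4.07 Mb and the left segment of V 4.25, 4.27 and 4.26 Mb. The left edge of IV did not coincide. It lay at 3.05 Mb in column a and at 6.98 and 7.10 Mb in columns b and c, whose outer level then took in the stretch from 4370001 to 7000000. With a running mean of 1 Mb it stood at 3.07, 7.11 and 7.22 Mb. The right edge of I lay 4.26, 4.02 and 3.20 Mb from the end, and the right edge of V 5.34, 5.86 and 5.87 Mb. Edges on X moved with the width of the running mean and are not given.

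Each 10-kb bin was then tested for a difference between IP and input with limma, in a fit of all 18 libraries with 1 coefficient for each of the 6 groups. Of 10029 bins, 2911 were enriched in set-25-labelled IP (29.0%) and 4384 depleted (43.7%) at a Benjamini-Hochberg adjusted p under 0.05. The outer parts of the autosomes held 2498 of the enriched bins and 1478 of the depleted ones, out of 5503 bins. Their middle parts held 152 enriched and 2002 depleted bins of 2754, and X held 261 and 904 of 1772. Centring each library on its median bin moved the median difference from -0.11 to 0.01 and the split to 3754 enriched and 3565 depleted bins. The contrast between regions remained, with 2971 enriched and 1130 depleted bins in the outer parts and 293 and 1756 in the middle parts. On X centring gave 490 enriched and 679 depleted bins.

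In the deposited scaling, chromosomes differed in these shares. On IV 650 of 1750 bins were enriched (37.1%), and on V 721 of 2092 (34.5%). On III the count was 465 of 1379 (33.7%), on II 437 of 1528 (28.6%) and on I 377 of 1508, while X had 14.7%. Among single parts, the right part of IV had the highest share, with 353 of 584 bins enriched, and the middle part of III the lowest, with 10 of 460 enriched and 410 depleted. In the middle parts of IV and V, 51 of 583 and 47 of 698 bins were enriched. The right part of II, whose mean lay near 0, was a mixture of 218 enriched and 184 depleted bins out of 509. The right part of I held 159 enriched and 194 depleted bins of 503.

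**Figure D4:**
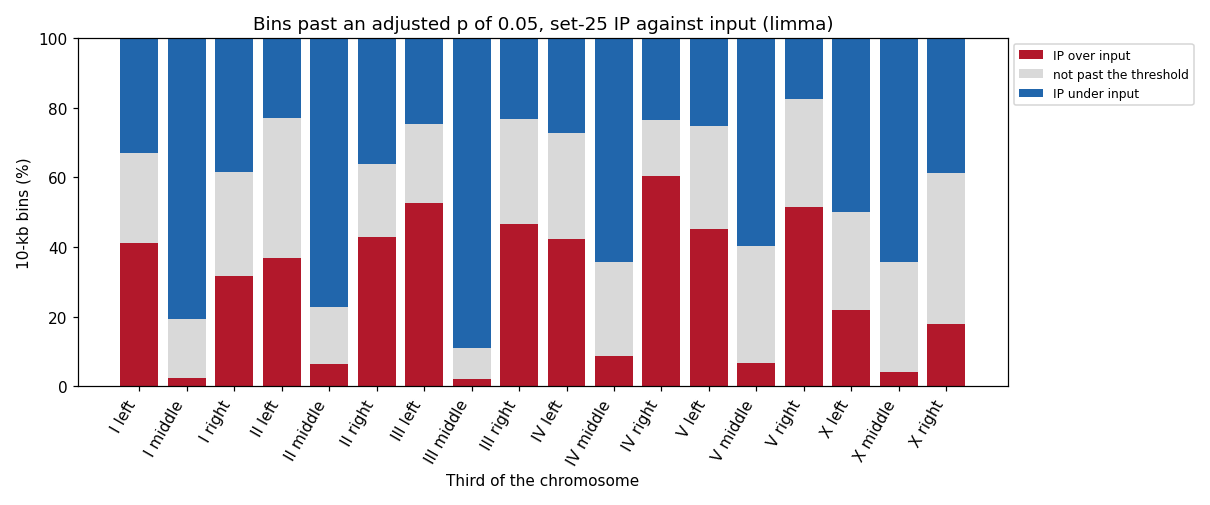
Share of 10-kb bins (%, y axis) in each chromosome part (x axis) in which set-25-labelled IP was over input or under input at an adjusted p under 0.05 in limma, or neither. The right part of IV has 353 of 584 bins over input, and the middle part of III 410 of 460 under input.

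Most runs of enriched and of depleted bins were short. The 2911 enriched bins formed 648 unbroken runs with a median of 30 kb, of which 188 were single bins, 9 reached 200 kb or more and the longest spanned 410 kb. The 4384 depleted bins formed 750 runs with a median of 20 kb, of which 270 were single bins, 51 reached 200 kb or more and the longest spanned 1120 kb. Runs of 200 kb or more held 8.93% of the enriched and 42.1% of the depleted bins. With runs joined over gaps of 1 bin, the shares were 36.4% and 49.8%, in 415 enriched and 610 depleted runs with medians of 40 and 30 kb. Of the unbroken enriched runs, the longest were on the right arm of IV. From 15060001 to 15470000, columns a, b and c averaged 0.85, 0.82 and 0.73, and from 15650001 to 16020000 0.75, 0.77 and 0.64. A run of 360 kb near the left end of V, from 360001 to 720000, was at 0.84, 0.59 and 0.52. The longest depleted run was on III from 5390001 to 6510000, at -1.06, -0.76 and -0.59, followed by X from 4120001 to 4930000, at -0.72, -0.59 and -0.46. Within enriched bins 78.2% of the 500-bp windows were above 0 in all 3 columns and 1.20% below 0 in all 3. In bins that were not called the shares were 18.6% and 17.8%. The bins were called on the mean of these same windows, so the shares are no further support.

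The bins of highest enrichment lay on the arms. Bins named for their level, here and below, were ranked among those already past the test. Their p-values and levels are therefore no further support. On III from 320001 to 330000, columns a, b and c labelled set-25 had 19597, 14305 and 9314 IP reads, against 9316, 7392 and 5214 input reads, unscaled. Enrichment was 1.62, 1.46 and 1.32, a mean of 1.46 ± 0.15 (SD, n = 3) or 2.76-fold over input (limma, SE 0.14, adjusted p = 1.65e-07). The 3 columns lay below the N2 range of 1.73 to 1.96 there, but the difference from N2 did not pass (limma, adjusted p = 0.146). A second bin on III, from 1270001 to 1280000, was uneven, at 1.75 in column a and 1.02 and 1.06 in columns b and c (limma, adjusted p = 6e-07). On IV from 16980001 to 16990000 the values were 1.29, 1.21 and 1.16, and at 16100001 to 16110000 1.14, 1.12 and 1.07. The bin on I from 1920001 to 1930000 was also even, at 1.16, 1.25 and 1.21. On V from 19800001 to 19810000 column a was higher, at 1.41 against 1.09 and 1.01. Near the right end of II, the bin from 15180001 to 15190000 was at 1.41, 1.20 and 0.99, and I from 860001 to 870000 at 1.15, 1.22 and 0.94.

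The bins of lowest enrichment lay in the middle parts of I, II, III and X, in the left parts of I and X and in the right part of II. On II from 9050001 to 9060000, columns a, b and c had 1492, 1217 and 1287 IP reads, against 6678, 4857 and 4086 input reads. Enrichment was -1.56, -1.43 and -1.15, a mean of -1.38 ± 0.21 (SD, n = 3) or 0.385 of input (limma, SE 0.15, adjusted p = 6.35e-07). On II from 11620001 to 11630000, in the right part, it was -1.40, -1.42 and -1.24, with the columns nearly level. Other such bins were on I at 4690001 and 7080001, on III at 5950001 and 4920001 and on X at 10590001 and 4610001, with means between -1.31 and -1.21. In all 8 bins each of the columns was at -1.02 or lower.

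Some bins went against the mean of the chromosome part they lay in, though not always against their near surroundings. In each autosomal middle part, the most enriched bin past the test was named. On III from 5350001 to 5360000 column a had 1.04, column b 0.65 and column c 0.55, a mean of 0.74 ± 0.26 (SD, n = 3). The same bin held 75155, 52755 and 37115 input reads, far above the median bin. On IV from 6400001 to 6410000 the values were 0.42, 0.76 and 0.70, on II from 9810001 to 9820000 0.55, 0.45 and 0.50, and on V from 7490001 to 7500000 0.29, 0.59 and 0.53. The IV bin lay in a segment that was itself above 0 in columns b and c, at -0.11, 0.17 and 0.18. The bin of I, from 8190001 to 8200000, was at 0.13, 0.31 and 0.32, and passed with all 3 columns (limma, adjusted p = 0.0106) but not without column b (0.076) or column c (0.0661). With column a as the only pair labelled set-25, where the other groups supply the spread, the bins of I, IV and V had an adjusted p of 0.452, 0.0838 and 0.0866 in limma. In the outer parts, at least 1 Mb from both ends, the lowest bins were the bins of I at 4690001 and II at 11620001 given above, III at 4500001 with a mean of -1.24, IV at 4040001 with -1.14 and V at 17120001 with -1.07. The bins of I, II, III and IV lay in segments of the finer division that were below 0 in all 3 columns. Those of I, II and III also lay beyond the fitted edges of the outer segments. The V bin was at -0.91 in column a and at -1.15 and -1.16 in columns b and c, and held 52545, 42116 and 36770 input reads.

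The columns differed in the height of the profile. The SD of enrichment over bins was 0.63 for column a, 0.49 for b and 0.42 for c, and the central 90% of bins lay between -1.15 and 0.88 in column a, -0.89 and 0.74 in column b, and -0.75 and 0.64 in column c. In columns a, b and c of met-2 the SD was 0.20, 0.32 and 0.48, and in those of N2 0.86, 0.65 and 0.66. In met-2, deviations of IP and input of the same letter correlated at -0.19, -0.35 and -0.48. Values of single met-2 columns, and correlations with them, may therefore depend on the pairing by letter. Over the 10029 bins Pearson's r was 0.91 between set-25 columns a and b, 0.87 between a and c and 0.96 between b and c. Bins of a column come from the same libraries and are not independent. Column a correlated with the 3 N2 columns at 0.95 to 0.96 and with the met-2 columns at 0.78 to 0.85. For column b the ranges were 0.85 to 0.89 with met-2 and 0.85 to 0.89 with N2, and for column c 0.82 to 0.92 and 0.80 to 0.87. Bins 100 kb apart correlated at 0.61 in column a, 0.48 in column b and 0.38 in column c.

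The largest single-bin differences between column a and the mean of b and c are given as values, since they were chosen for their size. On III from 2920001 to 2930000 column a was at 0.65 and columns b and c at -0.51 and -0.47, a difference of 1.14. The neighbouring bin, from 2930001 to 2940000, was at 0.42, -0.49 and -0.81. In met-2 these bins ranged from -0.83 to -0.08 and from -1.12 to -0.11, and in N2 from 0.39 to 0.88 and from 0.06 to 0.80. The last bins of I, from 15060001 to the end, had 0.15 and 0.05 in column a, -0.89 and -0.81 in column b, and -1.01 and -1.22 in column c. The first of them held 391514, 306226 and 292689 input reads in these 10 kb. In the other direction, I from 6020001 to 6030000 was at -1.02 in column a and at -0.31 and -0.18 in columns b and c. On III the bins from 8680001 to 8690000 and from 8920001 to 8930000 differed by -0.76 and -0.75, and on V the bin from 13820001 to 13830000 by -0.73.

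The arm contrast, taken as mean signal in the outer parts of autosomes less the mean in their middles, gathers the profile in 1 value per library. In IP columns a, b and c labelled set-25 it was 0.58, 0.32 and 0.20, and in their inputs -0.20, -0.17 and -0.13. IP and input did not overlap, with 0.37 ± 0.19 in IP and -0.17 ± 0.03 in input (SD, n = 3; difference 0.53). A two-sided exact permutation test gave p = 0.1, which is the floor for groups of 3. It stayed at 0.1 when adjusted over 3 comparisons. With IP and input paired by letter, an exact sign-flip test gave p = 0.25, the floor for 3 pairs. As enrichment the contrast was 0.78, 0.49 and 0.34, so that columns b and c reached 63.2% and 43.4% of column a. N2 columns a, b and c were at 1.22, 0.84 and 0.80, with column a also highest. The met-2 columns were at 0.21, 0.30 and 0.27. By chromosome the set-25-labelled contrast was largest on III, at 1.04, 0.73 and 0.52. Among autosomes it was lowest in column a on V, at 0.66, 0.39 and 0.27. Columns b and c kept least of the column a contrast on I, with 47.4% and 30.4%, and most on IV, with 72.8% and 51.7%. On X the same contrast was 0.28, 0.17 and 0.12.

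Against the other strains, columns labelled set-25 averaged 0.53 ± 0.22, met-2 0.26 ± 0.05 and N2 0.95 ± 0.23 (SD, n = 3 each), and no groups overlapped. The difference was -0.42 from N2 and 0.28 from met-2, each with an exact two-sided permutation p of 0.1, the smallest possible. The set-25-labelled mean, like the limma group, pools column a with columns b and c, which hold different stretches of the genome. Column a, which holds the chromosome III stretch from 8376501, was at 0.78, and the lowest N2 column was at 0.80. The libraries without it stood at 0.49 (column b) and 0.34 (column c), and the highest met-2 column was at 0.30. The part of that stretch in these values was not tested. With column a alone set against N2 the difference shrank to -0.18. Dropping also N2 column a, which lacks the V stretch from 1646001, it stood at -0.04. On III the contrast of column a was 1.04, above the lowest N2 column at 1.02, and on X it was 0.28, between N2 columns at 0.25 and 0.36. On IV column c had 0.35, and the met-2 columns 0.22 to 0.35. Of the 18 parts, column a was inside the N2 range in 8 and inside the met-2 range in 2. Column b was inside the N2 range in 1 and the met-2 range in 7, and column c in 0 and 10. The met-2 ranges may depend on the pairing of IP and input by letter.

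**Figure D5:**
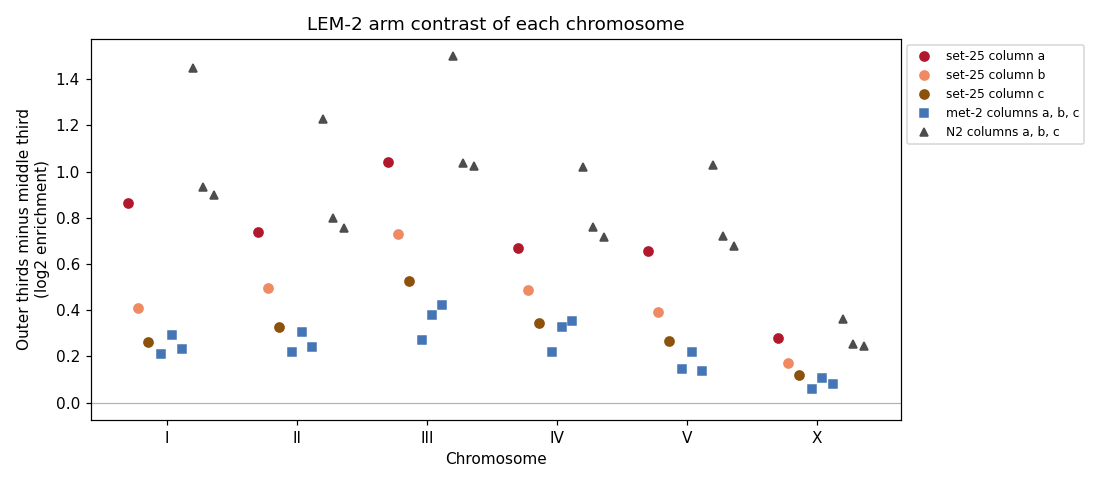
Arm contrast of LEM-2 enrichment (outer parts minus middle part, log2, y axis) for each chromosome (x axis). Circles are columns a, b and c labelled set-25, squares the met-2 columns and triangles the N2 columns. On every chromosome column a is the highest and column c the lowest of the 3 labelled set-25, as on III with 1.04 and 0.52.

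Bin by bin, limma placed 1988 bins higher (19.8%) and 1059 lower (10.6%) in set-25-labelled enrichment than in N2, with a median difference of 0.18 over all bins. With libraries centred on their median bin that median was 0.02, and the balance turned round, to 303 higher and 1648 lower. Without N2 column a, 47 were higher and 221 lower. In the deposited scaling the lower bins were unevenly spread over the arms: 194 of 697 bins in the right part of V and 187 of 503 in the right part of I, but 17 of 584 in the right part of IV, 32 of 509 in the right part of II and 45 of 697 in the left part of V. These last 3 parts were at 0.29 ± 0.04, -0.002 ± 0.05 and 0.09 ± 0.04 in columns labelled set-25, and at 0.27 ± 0.01, -0.04 ± 0.03 and 0.05 ± 0.03 in N2 (SD, n = 3 each). A difference in change between parts was not tested. With column a as the only library pair labelled set-25, 0 bins passed in limma (681 at an unadjusted p under 0.05). That fit takes its spread from the other groups, assumes that the lone pair varies like them, and does not show that column a equals N2. The count of bins past the test was 192 without column b and 228 without column c. Against met-2, 3 bins were higher (0.0299%) and 39 lower (0.389%) with all columns, and 1443 passed with column a alone, again with the spread of the other groups.

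Of the 24 bins named for their level, 1 differed from N2 and 1 from met-2 in limma, while 30.4% and 0.419% of all bins did. The 24 were chosen by their level in columns labelled set-25, which bears on these differences, so no result is read from the counts. The bin of I from 1920001 was at 1.21 ± 0.05 in columns labelled set-25 and 1.55 ± 0.09 in N2 (SD, n = 3; limma, adjusted p = 0.0496). The II bin from 15180001 was at 1.20 ± 0.21 in columns labelled set-25 and 0.69 ± 0.13 in met-2 (SD, n = 3; limma, adjusted p = 0.0481). Both p-values lie close to the threshold. Both bins were named for a high level in columns labelled set-25, which favours a value above met-2, so the II difference is no separate support.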

How the data were processed

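LEM-2 ChIP and input DNA of early embryos were sequenced in 18 libraries, 3 for each of 6 groups. The deposited table gives log2 values in 200538 windows of 500 bp; undoing the log2 with a pseudocount of 2 and a common total of 35.2 M reads returned whole reads within 0.01, so the authors had scaled libraries to equal totals and values are relative. The build is ce10 per the submitters' processing notes. For the aligner and duplicate handling, the sources used here give nothing. The gene table at hand runs past the last window on 4 chromosomes, so no window was assigned to a gene.

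Columns carry letters and were mapped to groups by name. IP minus input of 1 letter was averaged in 10-kb bins, 10029 in all, and none (0) was dropped by requiring 10 input reads per window on average. The test over bins was limma (version 3.58.1, under R 4.3.3; 18 libraries, 6 coefficients, 12 residual degrees of freedom, Benjamini-Hochberg adjusted p under 0.05), after the code was tested on simulated data. Arm contrasts used exact two-sided permutation tests in scipy 1.17.1. Named bins were the 8 highest and 8 lowest past the test with 1 sign in all columns, at most 2 a chromosome and 500 kb apart; the highest of each autosome's middle part; the lowest of its outer parts; and the 4 largest differences of column a from b and c in each direction. Members, lists and rules were chosen with earlier results of these data known. Alternatives were bin size, scaling, pseudocount, summed reads, voom, a replicate block and leaving out libraries.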

Additional observations from a re-analysis of the deposited data

Results flagged for a closer look

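Enrichment in columns labelled set-25 differed from N2 in 3047 bins and from met-2 in 42 bins by limma's test of the difference between strains (adjusted p under 0.05). Among the named bins, I from 1920001 differed from N2 by -0.35. The bins on III from 2920001 and on V from 13820001 also passed, at -0.71 and 0.51, but they were named for a difference between column a and columns b and c, so these values support nothing. The bin on II from 15180001 differed from met-2 by 0.50, but it was named for its high level in columns labelled set-25, which favours such a difference.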

How the results depend on the processing

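Counts of bins scale with bin size: 5578 enriched and 8303 depleted with 5-kb bins, and 614 and 952 with 50-kb bins. Under the other alternatives run, enriched and depleted counts stayed within 1.5 times. Against N2, 1951 bins differed with libraries centred on their median bin (303 higher, 1648 lower), 1094 with 50-kb bins and 0 without set-25 columns b and c (limma, 681 at an unadjusted p under 0.05). Leaving out 1 column gave 192 (set-25 b) to 5592 (set-25 a), with 228 without set-25 c, 268 without N2 a, 2000 without N2 b and 1540 without met-2 b. Against met-2, 1103 bins differed with voom on recovered reads and 1443 without set-25 columns b and c. Leaving out 1 column gave 0 (set-25 b, with 1647 at an unadjusted p under 0.05, or met-2 a, with 1077) to 367 (N2 a). IP and input deviations of the same letter correlated at 0.01, 0.14 and 0.16 in columns labelled set-25, at -0.19, -0.35 and -0.48 in met-2 and at 0.28, 0.24 and 0.31 in N2. All 3 N2 columns and set-25 columns a and c correlated best with their own letter, while set-25 column b and the met-2 columns did not. IP and input of a set-25 letter share the missing stretches, so the letters carry some pairing, but not every correlation exceeded 0.1 and the fit without a block was kept. With the column letters as a replicate block, 2830 bins were enriched, 4199 depleted, 2023 differed from N2 and 29 from met-2. Arm contrasts kept their direction under every alternative run. Chosen after seeing the data were leaving out a column of the strain that a comparison does not involve, b and c together with N2 a, and b and c together for named bins. Enriched runs fell in number to 415 when joined over 1 bin. The cause of these changes was not tested. Depth (8.73 to 64.5 M reads) limits what single windows show.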
